A study of Mus musculus with 8 samples.

Results

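Protease inhibitors of myeloid cells were examined as 8 genes, chosen by name from the deposited table: the serpin gene Serpinb1a, the WAP-domain genes Slpi, Wfdc21 and Wfdc17, the stefin genes Stfa2l1, Stfa2 and Cstb, and the cystatin gene Cst3. All 8 were found, among 25572 gene identifiers in all, and all 8 passed the filter on low counts. RNA had been sequenced from tumour-infiltrating neutrophils sorted by flow cytometry on surface ICAM1, also called CD54, from C57/B6 mice bearing PyMT-N tumours, with 4 ICAM1-high (cd54+) and 4 ICAM1-low (cd54-) libraries numbered 1, 2, 3 and 5 in both groups. No genotype, treatment, age or time is given for either group in the labels, nor whether animals were pooled. Each library was made from 150 pg of total RNA and held 15940328 to 21825096 estimated counts. Where 4 values follow each other for a group, they stand in the order of replicates 1, 2, 3 and 5.

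Myeloid cells store proteases in granules and lysosomes and hold them in check with inhibitors of several folds. Serpins such as the Serpinb1a product trap serine proteases inside the cell, and WAP-domain proteins such as SLPI block neutrophil elastase outside it. Stefins and cystatins block papain-like cysteine cathepsins: stefins act mostly in the cytosol, and cystatin C, the product of Cst3, is secreted and also blocks legumain.

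The labelled cell type was checked against its markers first. Of 15 neutrophil markers, 13 were above 1 CPM (counts per 1000000 counted, with edgeR's TMM scaling of library sizes) in every ICAM1-high library and 15 in every ICAM1-low library. Their summed level ranged from 1997 to 4913 CPM in ICAM1-high libraries and from 7878 to 37975 CPM in ICAM1-low libraries, and 7 of 15 were lower and 0 higher past the threshold. The 14 macrophage markers ran the other way, summing to 5327 to 15965 CPM in ICAM1-high libraries, against 649 to 1134 CPM in ICAM1-low libraries, with 10 higher past the threshold and 0 lower. So did 13 dendritic cell and MHC class II markers, at 3537 to 7373 CPM in ICAM1-high libraries, against 264 to 723 CPM in ICAM1-low libraries, with 5 higher and 0 lower. Most of that sum came from the MHC class II genes and Cd74, with Cd74 at 1556 to 3747 CPM in ICAM1-high libraries. The dendritic cell genes Xcr1, Clec9a, Flt3, Cd209a and Siglech were each at most 10.8 CPM in any library. The 8 monocyte markers were mixed, with 3 higher and 1 lower. Their sum, largely Fn1, was 2753 to 5198 CPM in ICAM1-high libraries, against 6945 to 15130 CPM in ICAM1-low libraries. T and NK cell markers summed to 62.4 to 290 CPM against 2.10 to 38.6 CPM, and B and plasma cell markers to 41.9 to 418 CPM against 2.07 to 144 CPM, in the same order. In such bulk libraries, fewer cells of a type and less RNA per cell cannot be told apart.

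Of the 8 inhibitors, 1 fell in ICAM1-high libraries past the threshold, Serpinb1a, and none rose (the threshold is a Benjamini-Hochberg adjusted p of 0.05 over 13575 genes in edgeR's quasi-likelihood test). Over all genes tested, 0.273% were called lower and 1.22% higher by the same rule. At an unadjusted edgeR p of 0.05, 4 of the 8 were lower (Serpinb1a, Slpi, Wfdc21 and Stfa2l1) and 0 higher, where 8.96% of all genes were lower and 7.96% higher. DESeq2 called 3 of the 8 lower and 0 higher, where it called 4.78% of all genes lower and 4.3% higher. The fitted change was negative in 6 of the 8, as in 52.3% of all genes, and positive in Cstb and Cst3, as in 47.7% of all genes, with a median log2 fold change of -2.23 over the 8 against -0.07 over all genes tested. The groups did not overlap for 4 genes that were lower in ICAM1-high libraries (Serpinb1a, Slpi, Wfdc21 and Stfa2l1), as for 3.9% of all genes, and for 1 that was higher (Cstb), as for 7.51% of all genes. The order of the fold changes and how far each moved when a library was left out are drawn in the plot of changes by gene.

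**Figure D1:**
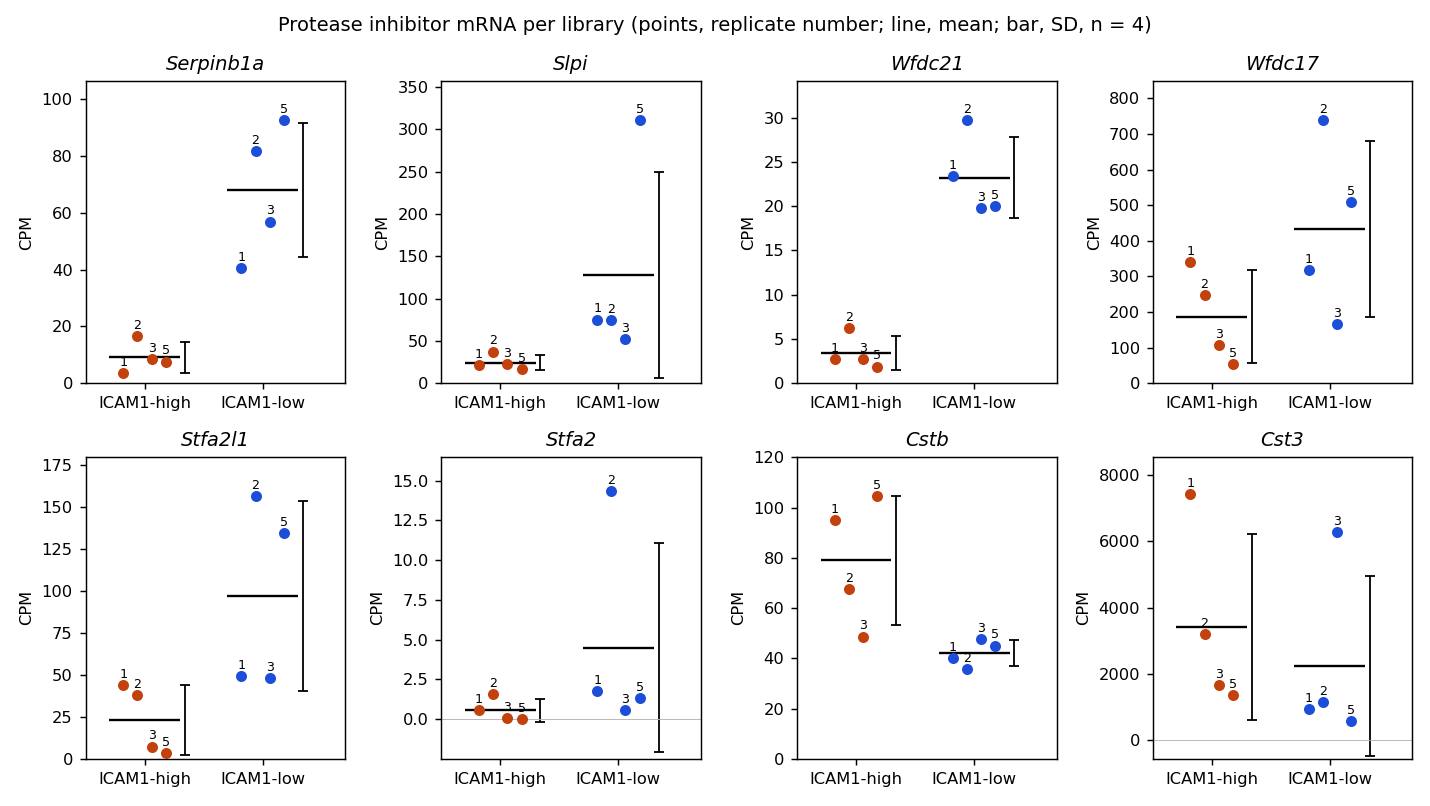
Level of each inhibitor in CPM (y axis, linear) in 4 ICAM1-high and 4 ICAM1-low libraries; points carry the replicate number, lines are means and bars SD. Serpinb1a, Slpi, Wfdc21 and Stfa2l1 sat lower in every ICAM1-high library than in any ICAM1-low library, while the groups of Wfdc17, Stfa2 and Cst3 overlapped.

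**Figure D2:**
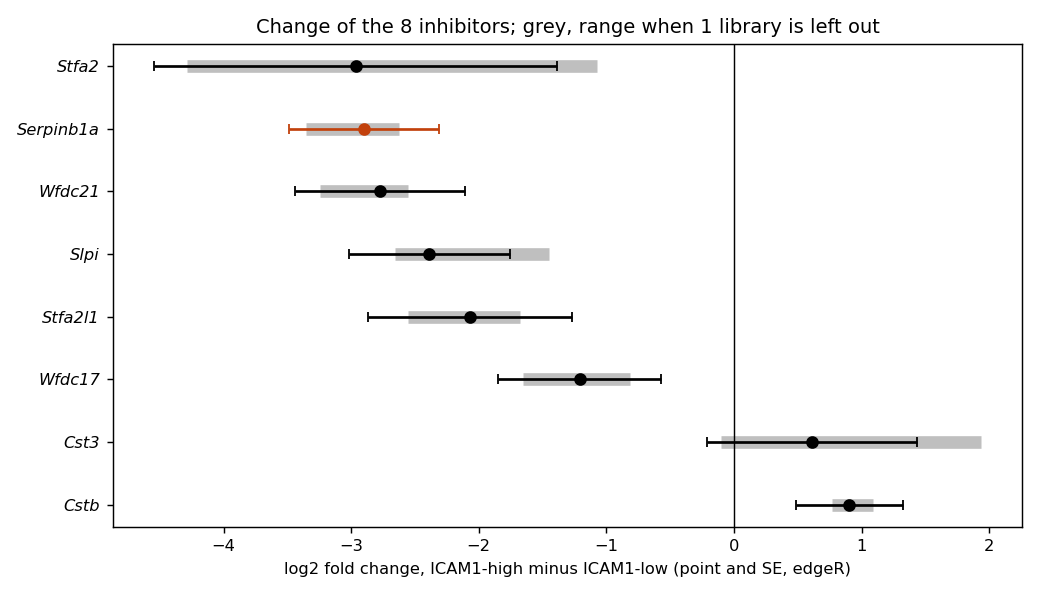
Log2 fold change of the 8 inhibitors, ICAM1-high minus ICAM1-low (x axis), with its SE; grey bands span the values when each library is left out in turn and orange marks adjusted p under 0.05. Serpinb1a, at -2.90, is the 1 gene past the threshold, and the band of Cst3 runs across 0.

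Serpinb1a (ENSMUSG00000044734) encodes leukocyte elastase inhibitor A, an intracellular inhibitor of neutrophil serine proteases. It had 3.65, 16.7, 8.58 and 7.59 CPM in the ICAM1-high libraries, against 40.4, 81.8, 56.9 and 92.6 CPM in the ICAM1-low libraries. Every ICAM1-high library was below every ICAM1-low library, and the highest ICAM1-high value stood well under the lowest ICAM1-low value. The means were 9.12 ± 5.47 CPM in ICAM1-high libraries, against 68.0 ± 23.7 CPM in ICAM1-low libraries (SD, n = 4 each), and the log2 fold change was -2.90 ± 0.59 (SE; edgeR adjusted p = 0.0405). The call was lost without ICAM1-high replicate 1, 2, 3 or 5 (edgeR adjusted p = 0.109, 0.0643, 0.0939 and 0.128, in that order) and when ICAM1-low replicate 1 or 2 was dropped (0.0718 and 0.0951). It held when ICAM1-low replicate 3 (0.0496) or 5 (0.0377) was dropped, and was lost when both libraries numbered 5 were (log2 fold change -2.60, edgeR adjusted p = 0.0658; 1.38% of all genes were called lower and 1.59% higher in that fit). In the reference transcripts 10.1% of the 31-base words of Serpinb1a also occur in another gene, most of them in its paralog Serpinb1b, which held at most 1.10 CPM in any library.

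Slpi (ENSMUSG00000017002) encodes secretory leukocyte protease inhibitor, which blocks elastase. It had 21.1, 37.4, 22.3 and 17.0 CPM in the ICAM1-high libraries, against 75.1, 74.2, 52.5 and 310.3 CPM in the ICAM1-low libraries. The groups did not overlap, and ICAM1-low replicate 5 stood far above the other ICAM1-low libraries. The log2 fold change of -2.39 ± 0.63 (SE, n = 4 each) did not pass the threshold (edgeR adjusted p = 0.0877), and without ICAM1-low replicate 5 it was -1.45 (edgeR adjusted p = 0.0914). That library also held the largest neutrophil marker sum, 37975 CPM; the part of this in the Slpi result was not tested. DESeq2 called Slpi lower (adjusted p = 0.00482). It was also called by edgeR with no filter on low counts (adjusted p = 0.0455), where 0.469% of genes were called lower and 0.958% higher.

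Wfdc21 (ENSMUSG00000051748), a small WAP-domain gene also known as Wdnm1-like, had the tightest ICAM1-low values of the genes that were lower. It had 2.75, 6.22, 2.69 and 1.87 CPM in the ICAM1-high libraries, against 23.4, 29.7, 19.8 and 20.0 CPM in the ICAM1-low libraries. The groups did not overlap. A log2 fold change of -2.78 ± 0.66 (SE, n = 4 each) did not pass the threshold (edgeR adjusted p = 0.0634). DESeq2 called it (adjusted p = 0.00012), as did limma-voom (adjusted p = 0.0236), and limma-voom called 2.57% of all genes lower and 3.39% higher. A filter of 10 CPM in 4 libraries also brought it past the threshold (edgeR adjusted p = 0.0393), with 0.701% of genes called lower and 2.11% higher. So did leaving out ICAM1-low replicate 5 (edgeR adjusted p = 0.0457), with 1.69% called lower and 2.36% higher.

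Wfdc17 (ENSMUSG00000069792), a WAP-domain gene described in activated mouse macrophages and microglia and also called Amwap, was the most abundant of the 3 WAP-domain genes per length in every library. It had 339.8, 248, 107 and 53.4 CPM in the ICAM1-high libraries, against 318, 738, 166 and 508 CPM in the ICAM1-low libraries. The groups overlapped: ICAM1-high replicate 1 was above ICAM1-low replicates 1 and 3. The log2 fold change was -1.21 ± 0.64 (SE, n = 4 each; edgeR adjusted p = 0.365).

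The stefin A genes Stfa2l1 and Stfa2 lie in a family cluster on mouse chromosome 16 and encode small cytosolic cathepsin inhibitors. The 250 bases before the start site of each follow, because they show how alike the pair is. Those of Slpi and Cst3 are set beside them for comparison. They are RefSeq sequences of build GRCm38.p6, at chr16:36156561-36156810 (plus strand) for Stfa2l1, chr16:36408364-36408613 (minus strand) for Stfa2, chr2:164356508-164356757 (minus strand) for Slpi and chr2:148875513-148875762 (minus strand) for Cst3, each written in the direction of its gene. The deposited counts were made on another build, so these positions serve the sequences only. Capitals mark matches on either strand. The PU.1 core was searched as GAGGAA. A C/EBP form was searched as TTNNGNAA, where N is any base. The GC box was searched as GGGCGG. The letters of the TATA box searched were TATAAA.
Stfa2l1: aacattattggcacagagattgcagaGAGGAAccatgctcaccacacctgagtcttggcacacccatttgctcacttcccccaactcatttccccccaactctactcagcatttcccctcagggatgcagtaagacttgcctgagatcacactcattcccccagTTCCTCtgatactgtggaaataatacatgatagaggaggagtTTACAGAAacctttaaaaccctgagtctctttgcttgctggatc
Stfa2: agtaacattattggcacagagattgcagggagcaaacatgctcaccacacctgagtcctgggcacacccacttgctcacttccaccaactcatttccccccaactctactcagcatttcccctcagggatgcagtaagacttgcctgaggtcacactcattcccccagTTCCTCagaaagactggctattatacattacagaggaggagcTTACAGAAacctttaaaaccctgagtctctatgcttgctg
Slpi: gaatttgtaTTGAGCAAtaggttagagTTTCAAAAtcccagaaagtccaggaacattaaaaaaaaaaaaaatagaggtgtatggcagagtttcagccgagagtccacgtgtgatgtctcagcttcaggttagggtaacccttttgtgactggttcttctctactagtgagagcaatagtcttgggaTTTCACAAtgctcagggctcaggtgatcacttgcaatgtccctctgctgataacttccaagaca
Cst3: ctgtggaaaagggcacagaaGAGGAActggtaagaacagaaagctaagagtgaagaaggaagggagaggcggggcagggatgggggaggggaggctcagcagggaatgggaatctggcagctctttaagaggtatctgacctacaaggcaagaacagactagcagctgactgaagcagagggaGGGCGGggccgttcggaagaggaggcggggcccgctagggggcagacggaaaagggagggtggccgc

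Aligned end to end, the windows of Stfa2l1 and Stfa2 were identical at 227 of 254 positions (89.4%), against 42.7% to 50.7% between either of them and the windows of Slpi, Cst3 or Wfdc17. In both stefin windows a PU.1 core and a C/EBP form lay near the start, the C/EBP form 44 to 37 bases before it in Stfa2l1 and 40 to 33 bases before it in Stfa2. The Slpi window held 3 matches to the C/EBP form and the Cst3 window 1 GC box and 1 PU.1 core, and no marked motif overlapped another. Over all 32851 windows of the same length, 23.3% held the PU.1 core, 36.8% the C/EBP form, 32.7% the GC box and 12.4% the TATA box. These matches are descriptions of the letters, and 5 of the 8 members had a window in the table.

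Stfa2l1 (ENSMUSG00000059657) had 43.8, 38.0, 7.31 and 3.41 CPM in the ICAM1-high libraries, against 49.3, 157, 48.3 and 134 CPM in the ICAM1-low libraries. The groups did not overlap, but ICAM1-high replicates 1 and 2 came close to ICAM1-low replicates 1 and 3, and each group had a higher and a lower pair of libraries. The log2 fold change of -2.07 ± 0.80 (SE, n = 4 each) did not pass the threshold (edgeR adjusted p = 0.224). Stfa2 (ENSMUSG00000022902) was near the detection floor, with 0.60, 1.59, 0.0483 and 0 CPM in the ICAM1-high libraries, against 1.75, 14.3, 0.587 and 1.33 CPM in the ICAM1-low libraries. ICAM1-high replicates 3 and 5 were under the floor of 3 counts. It was lower in ICAM1-high in each of the 4 same-numbered pairs, as 12.4% of all genes were, yet the groups overlapped. Its log2 fold change was -2.96 ± 1.58 (SE; edgeR adjusted p = 0.367), and was -1.07 when ICAM1-low replicate 2 was dropped and -4.29 when ICAM1-high replicate 2 was. Of the 31-base words in the reference transcripts, 41.6% of those of Stfa2l1 and 33.3% of those of Stfa2 also occur in another gene. Stfa2 held 29.3% of the Stfa2l1 words, and Stfa2l1 held 25.9% of the Stfa2 words. How reads were divided within the pair, and between the pair and other genes, is therefore uncertain.

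Cstb (ENSMUSG00000005054) encodes cystatin B, the stefin found in most cell types, and was higher in ICAM1-high libraries in all 4 same-numbered pairs, as 14.7% of all genes were. It had 95.1, 67.5, 48.6 and 105 CPM in the ICAM1-high libraries, against 40.1, 35.8, 47.6 and 45.1 CPM in the ICAM1-low libraries. The groups did not overlap, by about 1 CPM between ICAM1-high replicate 3 and ICAM1-low replicate 3. A log2 fold change of 0.91 ± 0.42 (SE, n = 4 each) did not pass the threshold (edgeR adjusted p = 0.301).

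Cst3 (ENSMUSG00000027447), the cystatin C gene, was the most abundant of the 8 per length in every library but ICAM1-low replicate 5, where Wfdc17 was. It had 7429, 3213, 1667 and 1369.5 CPM in the ICAM1-high libraries, against 941, 1159, 6279 and 578 CPM in the ICAM1-low libraries. ICAM1-low replicate 3 stood with the upper ICAM1-high libraries, and the other ICAM1-low libraries were below every ICAM1-high library. The log2 fold change of 0.61 ± 0.82 (SE, n = 4 each; edgeR adjusted p = 0.75) turned to -0.10 without ICAM1-high replicate 1 and was 1.94 without ICAM1-low replicate 3 (edgeR adjusted p = 0.196). Cst3 took 0.145% to 0.730% of all counts in ICAM1-high libraries, against 0.0415% to 0.60% in ICAM1-low libraries.

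Put on a per-length scale (counts divided by the deposited gene length and scaled to a sum of 1000000 in each library), the 8 genes lay far apart in level. Cst3 averaged 9031 ± 6460 in ICAM1-high libraries, against 5995 ± 7324 in ICAM1-low libraries, and Wfdc17 772 ± 489 in ICAM1-high libraries, against 1703 ± 1049 in ICAM1-low libraries (SD, n = 4 each). Serpinb1a, whose transcript is long, averaged 8.50 ± 5.48 in ICAM1-high libraries, against 56.4 ± 16.6 in ICAM1-low libraries on this scale, above Stfa2 alone. As a share of the summed per-length level of the 8, Cst3 made up 83.7% to 90.5% in ICAM1-high libraries and 26.3% to 91.8% in ICAM1-low libraries. Stfa2l1 made up 0.474% to 2.24% in ICAM1-high libraries, against 1.60% to 13.9% in ICAM1-low libraries. Cstb ranked above Stfa2l1 in all 4 ICAM1-high libraries and below it in all 4 ICAM1-low libraries.

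The inhibitors were also set against the summed 15 neutrophil markers of the same library, a scale chosen after the values were seen. Mmp9, whose own groups overlapped, was the largest part of the sum in every ICAM1-high library, at 30.8% to 42.0%. In ICAM1-low libraries S100a9 or Csf3r was the largest part, at 20.1% to 24.8%, so the sum weighs different markers in the groups. The marker sum was larger in every ICAM1-low library than in any ICAM1-high library, so this scale raised all genes in ICAM1-high relative to ICAM1-low alike. Serpinb1a held 1.10 to 3.80 CPM per 1000 CPM of summed neutrophil markers in ICAM1-high libraries, against 2.44 to 7.23 in ICAM1-low libraries, and Slpi 6.38 to 8.59 in ICAM1-high libraries, against 4.27 to 8.17 in ICAM1-low libraries. Wfdc21 held 0.830 to 1.27 in ICAM1-high libraries, against 0.528 to 2.51 in ICAM1-low libraries, and Stfa2l1 1.71 to 13.2 in ICAM1-high libraries, against 3.52 to 9.01 in ICAM1-low libraries. On this scale 0 of 8 genes stood lower in every ICAM1-high library, as did 0.0589% of all genes tested, and 48.4% of all genes stood higher. Cstb, at 13.7 to 52.3 in ICAM1-high libraries, against 1.19 to 6.04 in ICAM1-low libraries, was the 1 gene that stood higher in every ICAM1-high library. With the geometric mean of the markers in place of their sum, 0 stood lower, and 4 stood higher (Slpi, Wfdc17, Cstb and Cst3), as did 0.0295% and 60.8% of all genes, in that order. Nothing particular to the inhibitors is read from these counts.

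**Figure D3:**
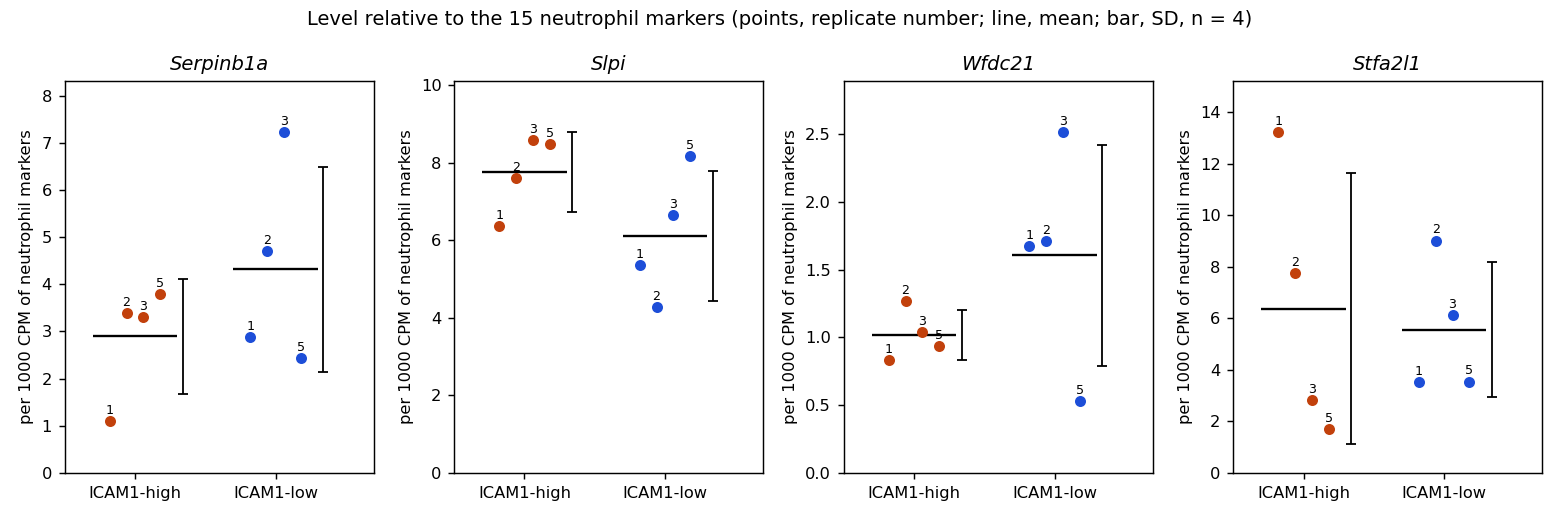
Level of 4 inhibitors in CPM per 1000 CPM of the 15 summed neutrophil markers (y axis) in 4 ICAM1-high and 4 ICAM1-low libraries; points carry the replicate number, lines are means and bars SD. The scale raises all genes in ICAM1-high libraries relative to ICAM1-low libraries, and the groups overlap for these 4, with Serpinb1a at 1.10 to 3.80 in ICAM1-high libraries, against 2.44 to 7.23 in ICAM1-low libraries.

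The proteases that these inhibitors restrain were then set beside them. Of 11 cysteine proteases, the cathepsins and legumain, 3 rose in ICAM1-high libraries and 0 fell, with 10 of 11 fitted changes positive and a median log2 fold change of 1.53, against -0.07 over all genes tested, of which 1.22% were called higher. These were Ctsc, which encodes the dipeptidyl peptidase that activates granule serine proteases, Ctss, a cathepsin of antigen-presenting cells, and Lgmn, the legumain gene. Ctsc had 4310.2, 2278, 2171 and 3542 CPM in the ICAM1-high libraries, against 309.6, 361, 401 and 523 CPM in the ICAM1-low libraries (log2 fold change 2.95 ± 0.48 SE; edgeR adjusted p = 0.0167). Ctss had 3509, 1839.5, 1302 and 5662 CPM in the ICAM1-high libraries, against 186, 250.5, 216 and 577 CPM in the ICAM1-low libraries (log2 fold change 3.32 ± 0.64 SE; edgeR adjusted p = 0.0347). Lgmn changed by 2.58 ± 0.49 on the log2 scale (SE; edgeR adjusted p = 0.0296). For all 3 genes, every ICAM1-high library was above every ICAM1-low library, as for the summed macrophage markers and the summed dendritic cell and MHC class II markers, whose part in these values was not tested. Without ICAM1-high replicate 1 or ICAM1-low replicate 1, none of the 11 passed. Ctsc lost the call without ICAM1-low replicate 2 as well, Ctss without ICAM1-high replicate 2 or 5 and ICAM1-low replicate 2 or 3, and Lgmn without any ICAM1-high library and without ICAM1-low replicate 2 or 3.

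Neutrophil serine proteases, a class that includes targets of Serpinb1a and Slpi though not each member of both, were hardly present as mRNA. Elane, the elastase gene, was at 0 in 5 of 8 libraries and at most 0.818 CPM. Prtn3, which encodes proteinase 3, had 2.56, 0.762, 2.89 and 0.220 CPM in the ICAM1-high libraries, against 4.05, 2.72, 11.5 and 0.262 CPM in the ICAM1-low libraries, and was the 1 gene of this list that passed the filter (log2 fold change -1.53 ± 1.23 SE; edgeR adjusted p = 0.561). One listed gene was not analysed here.

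Ratios within a library, which do not depend on scaling between libraries, set an inhibitor against the cysteine proteases or against another inhibitor. The log2 ratio of Cstb to the sum of these 11 cysteine proteases, per length, was -5.95, -5.61, -5.80 and -5.49 in the ICAM1-high libraries, against -4.65, -4.84, -4.97 and -4.47 in the ICAM1-low libraries. The groups did not overlap, and the ratio was 1.97-fold lower in ICAM1-high libraries (two-sided exact permutation test over 70 assignments, p = 0.0286, which is as small as 4 libraries a group allow; 0.114 after adjustment over 4 ratios). Cstb thus stood higher by CPM in ICAM1-high libraries and lower relative to these proteases, and neither difference passed the threshold after adjustment. The log2 ratio of Cst3 to the same 11 proteases differed by -0.88 (exact permutation p = 0.4, adjusted p = 0.533), that of Cst3 to Cstb by 0.09 (p = 0.914, adjusted p = 0.914) and that of Wfdc17 to Slpi by 0.72 (p = 0.371, adjusted p = 0.533). In each of these 3 ratios the groups overlapped.

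**Figure D4:**
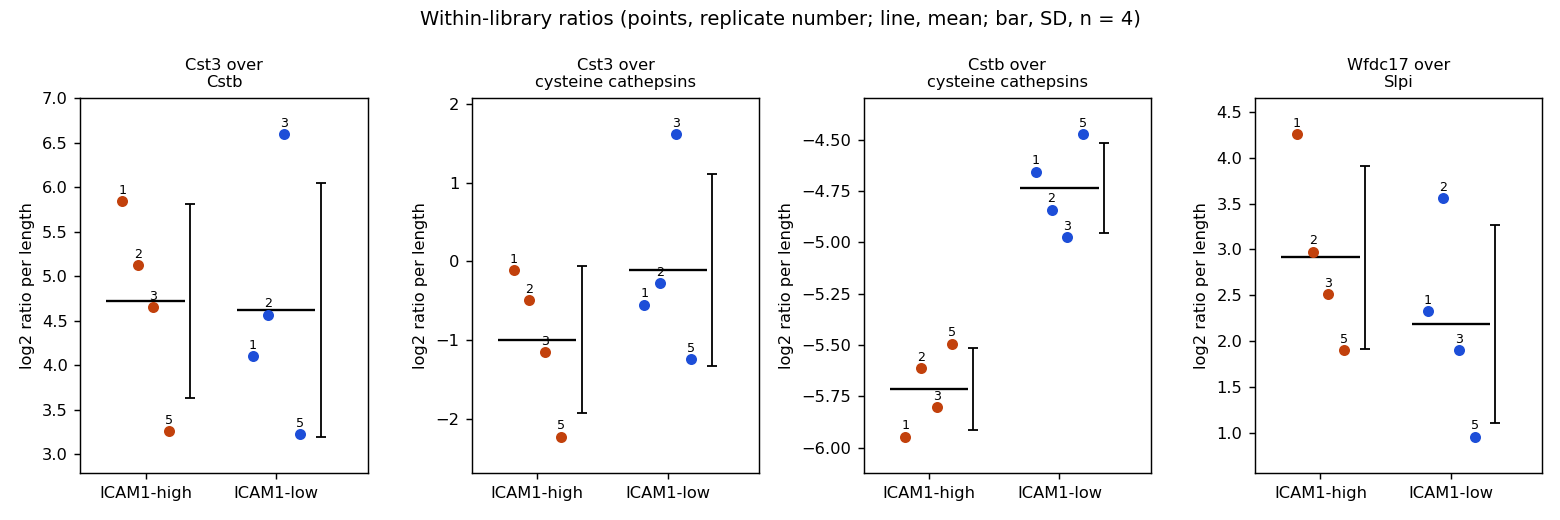
Log2 ratio of counts per length within each library (y axis) for 4 pairs of genes or sums, in 4 ICAM1-high and 4 ICAM1-low libraries; points carry the replicate number, lines are means and bars SD. The groups separate for Cstb over the cysteine cathepsins and legumain, at -5.95 to -5.49 in ICAM1-high libraries, against -4.97 to -4.47 in ICAM1-low libraries, and overlap for the other 3.

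None of the 32 other protease inhibitors tested on 4 lists passed the threshold in edgeR with group as the only term. At an unadjusted edgeR p of 0.05, 6 were higher and 7 lower, where 7.96% of all genes were higher and 8.96% lower. DESeq2 called 2 higher and 6 lower, where it called 4.3% of all genes higher and 4.78% lower. With a replicate term, edgeR called 4 lower (A2m, Serpinf1, Pi16 and Reck) and no inhibitor higher. That fit called 261 of 13575 genes lower and 280 higher. Of 5 tested stefins and cystatins, all 5 fitted changes were negative, as in 52.3% of all genes. They were led by Stfa1, a stefin A gene, at -3.99 ± 1.53, and Cst6, the cystatin M gene, at -3.60 ± 1.94 (SE; edgeR adjusted p = 0.223 and 0.374, in that order). ICAM1-low replicate 2, the library with the highest Stfa2 and Stfa2l1, also had the highest sum of these 5 genes: the sums were 4.36, 13.1, 0.674 and 0.454 CPM in the ICAM1-high libraries, against 25.9, 120, 4.45 and 12.04 CPM in the ICAM1-low libraries. Cst7, the cystatin F gene, did not pass the filter on low counts and is named after its values were seen: it had 0.379, 8.99, 17.7 and 11.3 CPM in the ICAM1-high libraries, and was at 0 or under 3 counts in ICAM1-low replicates 1, 2 and 3 and at 0.350 CPM in ICAM1-low replicate 5. With no filter edgeR called Cst7 higher, as it did 0.958% of genes. Without ICAM1-low replicate 5 Cst7 was also called higher, as were 2.36% of genes.

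Of 4 tested WAP-domain genes, 2 fitted changes were positive and 2 negative. Wfdc2, a WAP-domain gene of epithelia, was at -5.24 ± 2.01 and Wfdc1 at -2.97 ± 1.67 (SE; edgeR adjusted p = 0.221 and 0.395, in that order). Wfdc2 was at 0 in ICAM1-high replicates 1 and 5 and in ICAM1-low replicate 3, so its fitted size is uncertain, and it was highest, 23.1 CPM, in ICAM1-low replicate 1.

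Of 14 tested serpins other than Serpinb1a, 10 fitted changes were positive and 4 negative. Serpinb8, an intracellular serpin of the same clade as Serpinb1a, had 106.9, 74.0, 32.1 and 33.9 CPM in the ICAM1-high libraries, against 5.82, 11.1, 18.7 and 10.3 CPM in the ICAM1-low libraries (log2 fold change 2.43 ± 0.60 SE; edgeR adjusted p = 0.0726). Serpina3f was at 0 in all 4 ICAM1-low libraries and at 0.529 to 7.63 CPM in ICAM1-high libraries (edgeR adjusted p = 0.0814). Of these 14 serpins, 4 (Serpinb8, Serpinb6a, Serpinb2 and Serpina3f) were higher in every ICAM1-high library than in any ICAM1-low library, as were 7.51% of all genes.

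Among 9 tested inhibitors of other kinds, 7 fitted changes were negative and 2 positive, and Pi16 and Reck had the smallest p. Spint1 came next, close to Reck, and moved the other way (log2 fold change 2.64 ± 0.97 SE; edgeR adjusted p = 0.205). Pi16, which encodes peptidase inhibitor 16, had 1.75, 22.6, 7.83 and 4.40 CPM in the ICAM1-high libraries, against 53.5, 73.7, 33.5 and 282 CPM in the ICAM1-low libraries (log2 fold change -3.60 ± 0.92 SE; edgeR adjusted p = 0.0797), and its log2 fold change was -2.53 when ICAM1-low replicate 5 was dropped and -4.55 when ICAM1-high replicate 2 was. Reck, which encodes a membrane-anchored inhibitor of metalloproteinases, was at -2.30 ± 0.85 (SE; edgeR adjusted p = 0.205), and at -3.35 without ICAM1-high replicate 3.

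**Figure D5:**
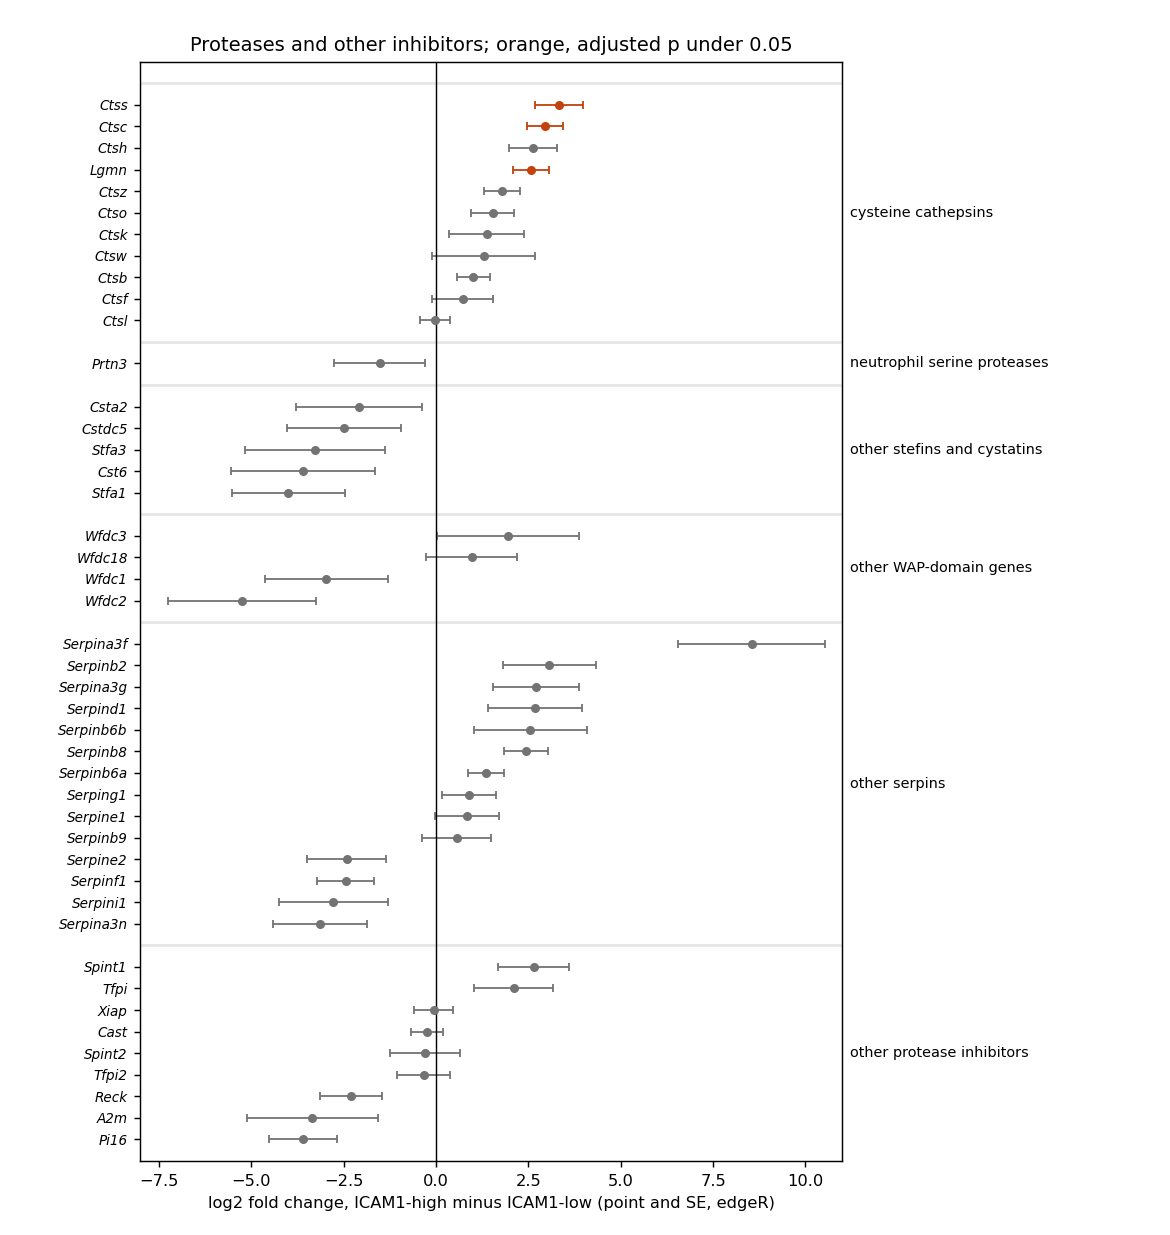
Log2 fold change, ICAM1-high minus ICAM1-low, with SE (x axis) for every tested cysteine cathepsin, neutrophil serine protease and other protease inhibitor; orange marks adjusted p under 0.05. Ctsc, Ctss and Lgmn, at 2.58 to 3.32, pass the threshold and none of the inhibitors does; the point of Serpina3f is a fitted value with all ICAM1-low libraries at 0.

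The genes whose profiles over the 8 libraries were closest to each inhibitor were found by the root mean square difference of centred log2(CPM + 1), among 7724 genes whose average log2 CPM was at least 4. Slpi ran closest to Fry (0.29), to Csf3r, the G-CSF receptor gene of neutrophils (0.30), and to Dgkg (0.32). Serpinb1a ran closest to Dennd3 (0.37), to the p38 kinase gene Mapk13 (0.41) and to Rflnb (0.44). Wfdc17 ran closest to the formyl peptide receptor gene Fpr2 (0.46), to Alox5ap, the leukotriene synthesis cofactor gene (0.47), and to Adgre5 (0.48), and Stfa2l1 to Asprv1, a skin aspartic protease gene (0.58), to Rnf144a (0.59) and to Fpr1 (0.59). Cstb ran closest to Hmgb1 (0.14), Mif4gd (0.16) and Adam17, a membrane sheddase gene (0.18), and Cst3 to Commd2 (0.37), Ppp1r14b (0.39) and Atg10 (0.40). Wfdc21 and Stfa2 were below the level set for this search. All these profiles share the same libraries and scaling, and no test was made of them.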

How the data were processed

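The authors deposited 1 table of estimated counts per gene, with 1 gene length in bases and a column per library. Trim Galore 0.6.6, Salmon 1.9.0 and build GRCm39 (mm39) are named in the submitters' processing notes; the sources used here give no annotation or settings. Of 25669 rows, repeated identifiers with equal values were kept once (25572), and 25343 were found in a GENCODE names table. Estimated counts were rounded for the count models, filtered by edgeR's filterByExpr (13575 genes), scaled by TMM and tested with edgeR 4.0.16 in R 4.3.3 (quasi-likelihood, robust, group only, Benjamini-Hochberg). CPM uses TMM-adjusted totals; an SE is the log2 fold change over the root of F. A count of 3, the floor for counting error only, was 0.12 to 0.262 CPM. Ratios had 0.5 count added per gene and were tested by exact permutation over libraries (SciPy 1.17.1). The labels do not tie libraries to separate animals. The p-values therefore cover the spread among these libraries, which may be technical.

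On simulated counts of this comparison (13209 genes), the test found 0 of 47 genes with a 2-fold change, 1 of 46 with 4-fold, 17 of 50 with 8-fold and 32 of 50 with 16-fold, and made 2 false calls. Members, lists and the rule for named genes (all members; of each list the called genes, or the 2 with the smallest p; the 3 closest profiles) were chosen with earlier results of these data known. The fits were repeated with DESeq2 1.42.0 and limma-voom (limma 3.58.1), with no scaling beyond library size, RLE or upper-quartile scaling, with other filters, with a replicate term and with libraries left out.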

Additional observations from a re-analysis of the deposited data

Results flagged for a closer look

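In 10 of 84 groups of 4 libraries checked, 1 library lay far from the other 3 by Dixon's test. Among independent groups that test flags about 1 in 20 by chance. The groups here include genes picked for profiles like those of the inhibitors, so the count of 10 cannot be set against that rate. Slpi was at 310.3 CPM in ICAM1-low replicate 5, against 52.5 to 75.1 CPM in the other ICAM1-low libraries. Stfa2 was at 14.3 CPM in ICAM1-low replicate 2, against 0.587 to 1.75 CPM in the others. Cst3 was at 6279 CPM in ICAM1-low replicate 3, against 578 to 1159 CPM in the others.

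Among the listed genes, Ctss was at 577 CPM and Pi16 at 282 CPM in ICAM1-low replicate 5, against 186 to 250.5 CPM and 33.5 to 73.7 CPM in the other ICAM1-low libraries, and Serpina3f was at 7.63 CPM in ICAM1-high replicate 2, against 0.529 to 1.06 CPM in the other ICAM1-high libraries. Of the genes with the closest profiles, Csf3r was at 9417 CPM, Rnf144a at 251 CPM and Dennd3 at 179 CPM in ICAM1-low replicate 5, against at most 1811, 89.7 and 111 CPM in the other ICAM1-low libraries, in that order. Ppp1r14b, whose profile was near that of Cst3, was at 68.7 CPM in ICAM1-low replicate 3, against 9.35 to 17.0 CPM in the others.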

How the results depend on the processing

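No inhibitor of the 8 was called higher under any setting run. The number called lower, 1 as reported, was 3 with DESeq2 (Serpinb1a, Slpi and Wfdc21), 2 with limma-voom, 2 with no filter, 2 with at least 10 CPM in 4 libraries, 0 without both libraries numbered 5 and 0 to 2 when each library was left out. The cause of these shifts was not tested. Serpinb1a kept its direction under all 17 alternatives, with log2 fold changes of -3.35 to -2.56. Of the listed proteases and other inhibitors, 3 were higher and 0 lower as reported, and the numbers were 6 higher with library sizes only, 7 higher and 6 lower with DESeq2, 8 and 3 with limma-voom, 6 and 1 with no filter, 5 and 3 without both libraries numbered 5, and 0 to 5 higher and 0 to 2 lower when each library was left out. The calls over all genes moved as well. Of 13575 genes, 166 were higher and 37 lower as reported, 258 and 31 with library sizes only, 584 and 649 with DESeq2, and 460 and 349 with limma-voom. With no filter 245 of 25565 were higher and 120 lower, and without both libraries numbered 5, 219 of 13778 and 190. When each library was left out, 4 to 337 genes were higher and 0 to 241 lower. The log2 fold change of Cst3 reversed to -0.10 without ICAM1-high replicate 1, was 1.94 without ICAM1-low replicate 3, and the difference in the log2 ratio of Cst3 to Cstb ran from -0.37 to 0.75 when each library was left out. The difference in the log2 ratio of Cstb to the cysteine proteases ran from -1.06 to -0.89 in the same fits, where the smallest exact permutation p possible is 0.0571. The genes whose groups did not overlap, 4 lower and 1 higher by CPM, were 0 lower and 1 higher per summed neutrophil markers and 0 lower and 4 higher per their geometric mean, alternatives chosen after seeing the data that raise all genes in ICAM1-high relative to ICAM1-low. Upper-quartile scaling and library sizes only put the median change over all genes at 0.06 and 0.17 on the log2 scale, against -0.07 with TMM.

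No label says what a shared number marks. For same-numbered libraries the correlations of deviations from the group means were -0.18, 0.11, 0.17 and 0.37. For libraries with different numbers they ran from -0.37 to 0.17, so whether a number marks a pair is not settled here. With the replicate block 1 inhibitor was called lower (Serpinb1a, log2 fold change -3.02, edgeR adjusted p = 0.0187). Of the listed genes, 3 were higher and 4 lower (A2m, Serpinf1, Pi16 and Reck). The block fit called 280 of 13575 genes higher and 261 lower, against 166 and 37 without the block. The exact sign-flip p for Cstb over the 11 cysteine proteases was 0.125, the smallest that 4 pairs allow. Changes of 4-fold or less were rarely recovered in simulated data, so the inhibitors that missed the threshold are not shown to be alike in both groups.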

Other observations

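Secreted serpins outside the 8 inhibitors were high in 3 of the 4 ICAM1-low libraries; they are named here after their values were seen. Serpine2, the protease nexin gene, had 441, 403, 945 and 35.4 CPM in the ICAM1-high libraries, against 3209.8, 2649, 3825 and 65.6 CPM in the ICAM1-low libraries (log2 fold change -2.42 ± 1.06 SE; edgeR adjusted p = 0.281). Serpinf1, which encodes pigment epithelium-derived factor, had 212, 254, 411 and 44.8 CPM in the ICAM1-high libraries, against 1294, 1270.2, 2249 and 220.0 CPM in the ICAM1-low libraries (log2 fold change -2.45 ± 0.77 SE; edgeR adjusted p = 0.145). Both libraries numbered 5 were the lowest of their group for both genes. Without both libraries numbered 5, Serpine2, Serpinf1 and Serpina3n were past the threshold in edgeR, in a fit that called 1.38% of all genes lower and 1.59% higher. The 7 fibroblast markers summed to 446 to 1922 CPM in ICAM1-high and 1588 to 2555 CPM in ICAM1-low libraries, with the lowest ICAM1-low sum and the highest ICAM1-high sum both in replicate 5. The markers did not move together. Col1a1 and Col1a2 were highest of their group in both libraries numbered 5, with Col1a2 at 499 and 584 CPM. Lum (58.3 and 30.1 CPM) and Pdgfra (28.0 and 87.4 CPM) were lowest of their group in both. Col3a1, Dcn and Pdgfrb did neither. The part of fibroblast markers in the serpin values was not tested.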
